A study of Mus musculus with 22 samples.

Results

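The genes described here are 9 genes of iron transport, storage and sensing among the 10516 genes quantified in NIH3T3 cells, a mouse embryonic fibroblast line, after knockdown of the translation reinitiation factor Denr. They are Slc40a1, Fth1, Ftl1, Tfrc, Slc11a2, Aco1, Ireb2, Ncoa4 and Steap3. All 9 were found in the data by their Ensembl gene identifiers. They were chosen by their known roles, with earlier results of these data known. Slc40a1 was selected on its RNA rise from control to Denr knockdown in these libraries. Its knockdown values are therefore a description and carry no test.

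Cells carried a lentivirally delivered shRNA, either Denr shRNA1 or Denr shRNA2, or a control shRNA that was scramble shRNA or targeted Gfp. There were 3 lysates for each Denr shRNA, 3 for scramble shRNA and 2 for Gfp shRNA, so that 6 knockdown lysates faced 5 controls. All cells, controls included, were transduced and selected pools rather than clones, and all received cycloheximide at 100 µg/ml for 2 min at harvest. Each lysate was measured both by RPF-seq, which reads the ribosome-protected fragments (footprints), and by RNA-seq, giving 22 libraries. The labels do not say that the replicates came from separate days, so p-values measure the spread between these lysates.

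Iron-regulatory proteins bind a short RNA hairpin, the iron-responsive element (IRE). Bound to a hairpin in the 5′ UTR, they keep ribosomes from loading, as in the ferritins and the iron exporter ferroportin, and bound to hairpins in the 3′ UTR, they protect the transferrin receptor mRNA from decay. In this way iron-poor cells take up more iron and store and export less. DENR, with its partner MCTS1, helps ribosomes that have translated an upstream open reading frame (uORF) to start again on the main coding sequence (CDS).

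The hairpins are shown because the iron-regulatory proteins are known to bind them in these members. A search of GENCODE vM21 transcript models (GRCm38) looked on the transcript strand for a C, 5 bases, the loop CAGTGN and 5 bases that pair with the 5 before the loop. It matched the 5′ UTR of Slc40a1, Fth1 and Ftl1 and the 3′ UTR of Tfrc, where 4 matches stood in exon 19. Each line gives 28 bases 5′ to 3′, with the loop in capitals.
Fth1, 5′ UTR, exon 1, chr19:9982732-9982759, plus strand: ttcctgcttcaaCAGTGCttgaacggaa
Ftl1, 5′ UTR, exon 1, chr7:45459780-45459807, minus strand: gtcttgcttcaaCAGTGTttgaacggaa
Slc40a1, 5′ UTR, exon 1, chr1:45925466-45925493, minus strand: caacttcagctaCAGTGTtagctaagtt
Tfrc, 3′ UTR, chr16:32631219-32631246, plus strand: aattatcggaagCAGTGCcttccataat
Tfrc, 3′ UTR, chr16:32631598-32631625, plus strand: cattatcgggagCAGTGTcttccataat
Tfrc, 3′ UTR, chr16:32631663-32631690, plus strand: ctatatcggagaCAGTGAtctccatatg
Tfrc, 3′ UTR, chr16:32631710-32631737, plus strand: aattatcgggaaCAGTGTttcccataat

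These letters stood in 14 of 10276 5′ UTRs (0.136%) and in 68 of 10344 3′ UTRs (0.657%). The models searched for the other 5 members held no match to these letters, which says nothing about hairpins of another form. A transcript form of Slc11a2 is also known to carry an IRE in its 3′ UTR. The search, which asked for all 5 pairs, ran over 6 coding transcripts of Slc11a2 and listed no hairpin there. An AUG uORF was predicted in the 5′ UTR models of Ftl1, Slc11a2, Aco1 and Ireb2, with 1 each, the one of Ireb2 running into the CDS. The models of Slc40a1, Fth1, Tfrc, Ncoa4 and Steap3 held none, and 49.9% of all 5′ UTR models held at least 1. Start codons other than AUG were not searched, and the paper counts Fth1 among genes with translated uORFs. For Fth1, Ftl1, Slc11a2 and Ireb2 no model had both the CDS and the 5′ UTR length behind the deposited values, so that their uORF counts come from the nearest model.

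Libraries held 10927295 to 21649878 reads on CDS and 5′ UTRs, as recovered from the steps of the deposited values. The RNA-seq library of Denr shRNA1 replicate 1 lay farthest from the gene medians (SD 0.376 on the log2 scale over 10158 genes), followed by that of scramble shRNA replicate 3 (0.294), against 0.151 to 0.253 in the other 9. Scramble shRNA replicate 3 was also the farthest in RPF-seq (0.289, against 0.169 to 0.213). Denr RNA was 15.5 to 44.0 RPKM (reads scaled for the length of the region and the size of the library) in knockdown lysates and 165 to 190.1 RPKM in controls, a reduction of 77.5% with shRNA1 and 90.1% with shRNA2. All 8 fibroblast markers listed were measured, their summed RNA at 7619 to 9517 RPKM in knockdown and 7294 to 8868 RPKM in control lysates. No erythroid marker of 7 was among the genes quantified, nor were 6 of 8 macrophage, 4 of 5 hepatocyte and 3 of 4 epithelial markers, and in RNA 0 markers of these lists passed at an FDR of 0.1 (limma across all genes). Of all genes, 3.55% passed in RNA. An unadjusted p below 0.05 was found for 2 fibroblast, 1 macrophage and 1 hepatocyte marker. No share over all genes stands beside that count. The other marker sums in RNA were 49.2 to 70.4 RPKM in knockdown and 41.7 to 61.1 RPKM in control lysates for macrophage, 5.60 to 7.24 RPKM and 3.89 to 6.79 RPKM for hepatocyte, and 2.74 to 4.04 RPKM and 3.16 to 4.05 RPKM for epithelial markers. Their part in the results was not tested.

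In control cells the iron genes spanned nearly the whole range of RNA levels. The ferritin heavy chain gene Fth1 (chr19:9980598-9985098) averaged 3049 ± 880 RPKM (SD, n = 5) and ranked 11th of the 10516 genes. The ferritin light chain gene Ftl1 (chr7:45457944-45459884) averaged 1501 ± 178 RPKM and ranked 50th. Both proteins form the shell in which the cell stores iron.

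Steap3 (chr1:120190757-120272705), an endosomal reductase that converts ferric to ferrous iron, averaged 178 ± 18.2 RPKM in RNA. Slc11a2 (chr15:100387898-100425072), encoding the ferrous iron transporter DMT1, averaged 57.4 ± 3.99 RPKM. Ncoa4 (chr14:32159865-32179855), the receptor that carries ferritin to the lysosome for iron release, averaged 33.9 ± 1.80 RPKM, and Tfrc (chr16:32608920-32632794), the transferrin receptor that takes up iron, 33.6 ± 3.97 RPKM. The difference between Ncoa4 and Tfrc was within their spread.

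The iron-regulatory proteins themselves are encoded by Aco1 (chr4:40143081-40198338), which doubles as a cytosolic aconitase, and Ireb2 (chr9:54863789-54912530). Their RNA averaged 22.3 ± 1.75 and 15.0 ± 3.67 RPKM. The lowest of the 9 was Slc40a1 (chr1:45908068-45926523), encoding ferroportin, the iron exporter of the plasma membrane, at 1.32 ± 0.337 RPKM, with 3.07% of genes below it. These levels are per kilobase of CDS and can be set side by side between genes, save for Ftl1 and Ncoa4. Of the 30-base windows of their CDS, 95.6% and 96.7% also stood in other genes, as did 23.6% of those of Fth1.

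**Figure D1:**
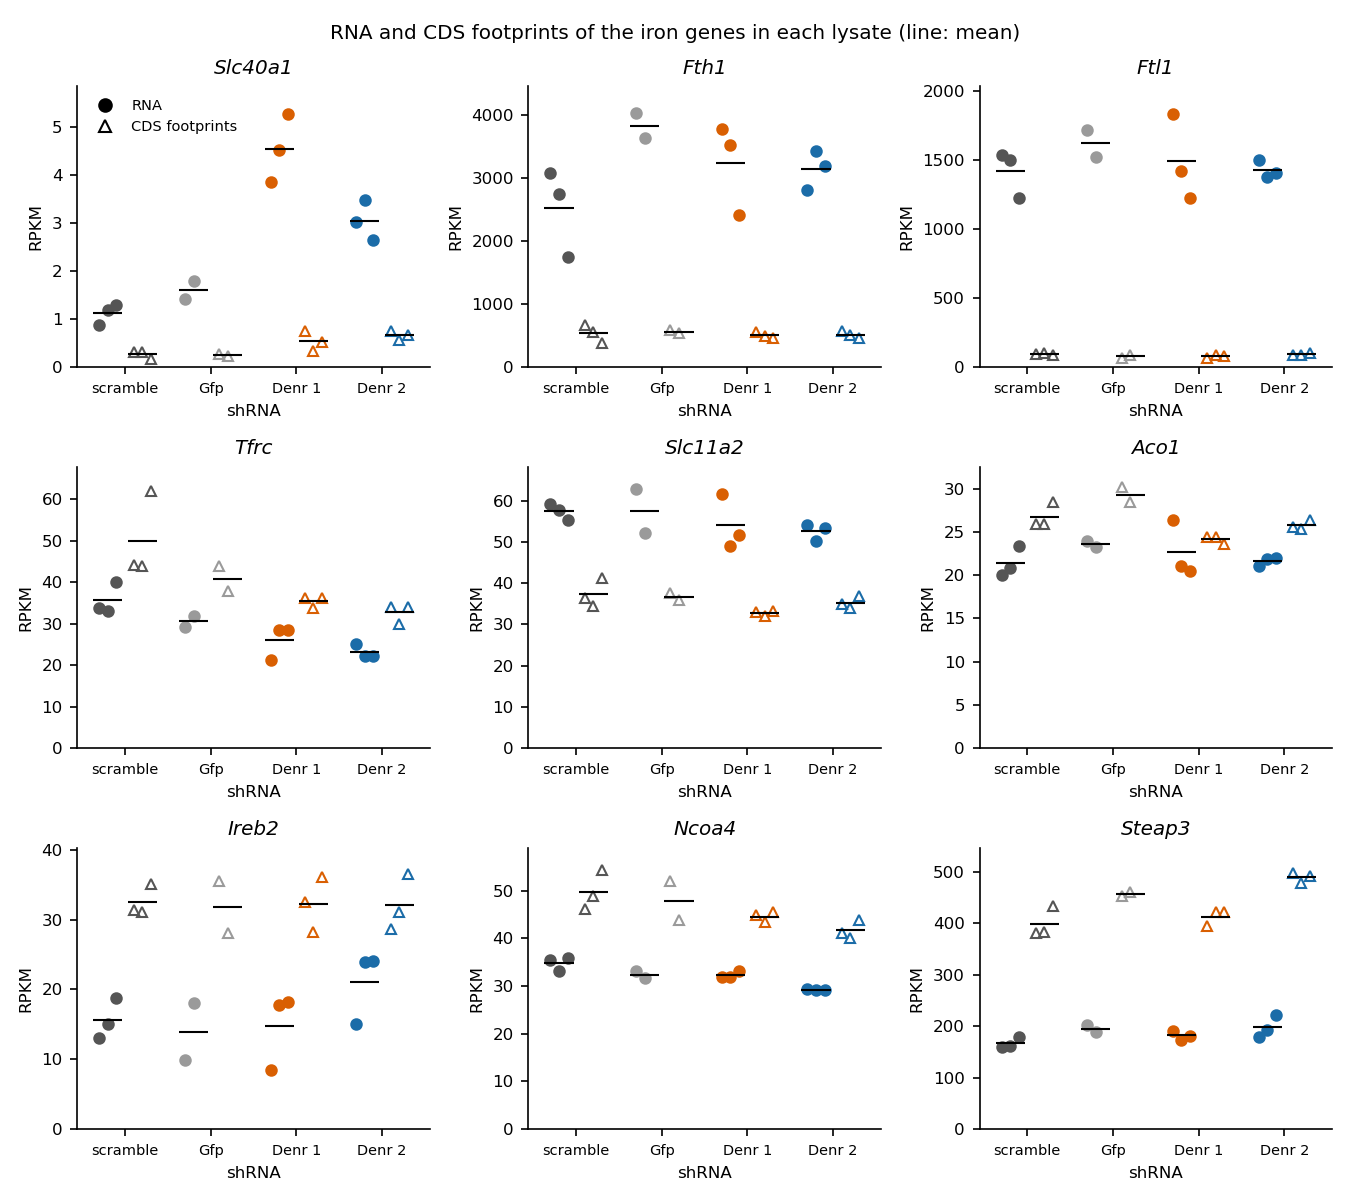
CDS RNA (filled circles) and CDS footprints (open triangles) of the 9 iron genes, in RPKM, for each lysate under the 4 shRNAs, with lines at the means. Slc40a1 RNA was higher and Tfrc RNA and footprints were lower in all 6 Denr knockdown lysates than in any control, while the ferritins had far fewer footprints than RNA in every lysate.

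Translation efficiency (TE), the CDS footprints over CDS RNA on the log2 scale with 0.1 RPKM added to each, set the 3 members with a 5′ UTR hairpin low among all genes. In controls TE was -4.09 ± 0.35 (SD, n = 5) for Ftl1, with 21 of 10516 genes lower, and -2.45 ± 0.29 for Fth1, with 227 lower. It was -1.97 ± 0.52 for Slc40a1, with 465 lower, on 5 to 9 footprint reads a library. The median gene stood at -0.08.

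The remaining members ranged from below the median gene to near the top in control TE. Slc11a2 stood at -0.63 ± 0.14, Aco1 at 0.32 ± 0.03, Tfrc at 0.45 ± 0.16 and Ncoa4 at 0.53 ± 0.11. Ireb2 at 1.14 ± 0.45 and Steap3 at 1.25 ± 0.05 exceeded 94.7% and 96.1% of genes. In this order the control lysates of Fth1 and Slc40a1 overlapped, as did those of each neighbouring pair from Aco1 through Tfrc, Ncoa4 and Ireb2 to Steap3.

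Part of these levels may rest on reads that fit more than 1 gene, as judged from shared sequence and not from reads. Of the 30-base windows of the Ftl1 CDS, 95.6% also stood in transcripts of 32 other annotated genes, among them Ftl1 pseudogenes, and 60.7% of the windows of its 5′ UTR were shared with 1 other gene. For the Fth1 CDS the share was 23.6%, with 3 other genes, and for the Ncoa4 CDS 96.7%, with 1 other gene. No window was shared in the 5′ UTR of Fth1 and Ncoa4 or in either region of the other 6 members. The CDS values of Ftl1 and Ncoa4, and the ratios made from them, are therefore uncertain, and the part of shared sequence in the low TE of Ftl1 was not tested.

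The ferritins also had more footprints on the 5′ UTR than on the CDS. Relative 5′ UTR translation, the log2 ratio of 5′ UTR to CDS footprints per kilobase, could be followed in the 5175 genes whose 5′ UTR held 20 or more footprint reads in 9 or more of the 11 libraries, and 5 members were among them. In controls it was 4.45 ± 0.99 (SD, n = 5) for Ftl1, ranked 9th of 5175, and 2.50 ± 1.04 for Fth1, ranked 67th. The gene at the median stood at -0.89.

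In the RNA-seq of the same controls, the 5′ UTR-to-CDS log2 ratio of Fth1 was -0.88 ± 0.19, near the median gene at -0.98. That of Ftl1 was 1.88 ± 0.22 and exceeded 98.8% of genes, so that its 5′ UTR also held more RNA reads per kilobase than its CDS. The 5′ UTR took 62.0% ± 15.0 of the CDS and 5′ UTR footprints of Fth1 and 89.7% ± 6.95 of those of Ftl1. Whether all of these 5′ UTR fragments came from translating ribosomes was not tested.

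Relative 5′ UTR translation in controls was 0.57 ± 0.15 for Ireb2, 0.45 ± 0.39 for Slc11a2 and -2.47 ± 0.51 for Aco1. Ireb2 was set apart by its scarce 5′ UTR RNA. Against 60 to 146 footprint reads in each control, its 5′ UTR held 2 to 7 RNA reads, so that 5′ UTR footprints over 5′ UTR RNA reached 4.58 ± 0.63 on the log2 scale, the highest of the 5175 genes. With so few RNA reads, this ratio is known only roughly.

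**Figure D2:**
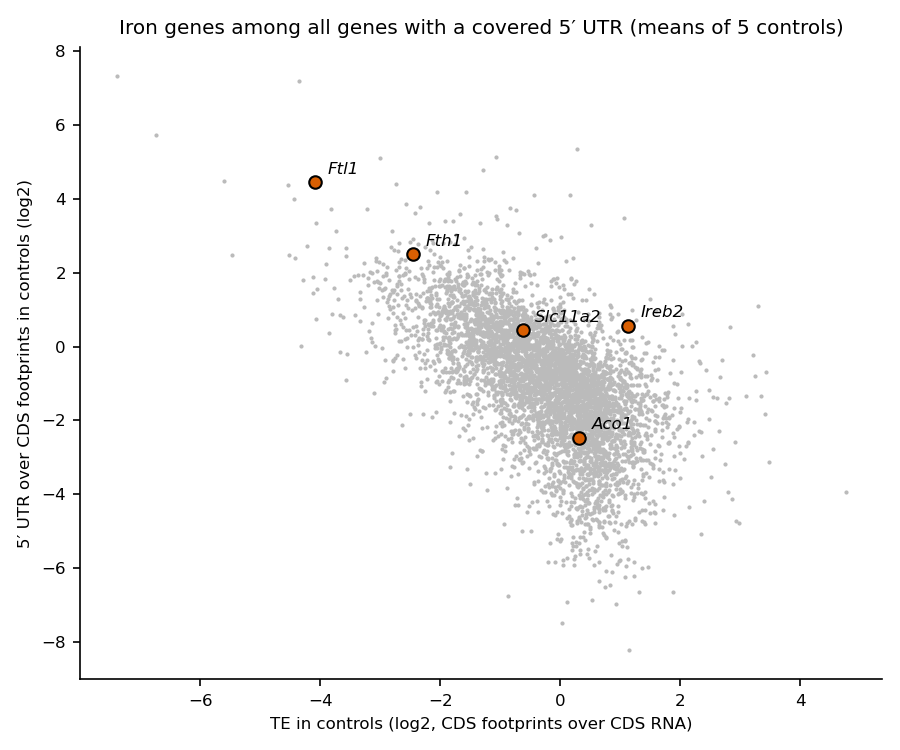
Relative 5′ UTR translation against TE, both log2 means of the 5 controls, for the 5175 genes with a covered 5′ UTR (grey) and the 5 iron genes among them (orange). Fth1 and Ftl1 lie at the upper left, with low TE and high relative 5′ UTR translation, and Aco1 lies among the bulk of genes. CDS footprints enter both axes.

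Slc40a1, the exporter, had higher RNA after Denr knockdown, which is how it was chosen. Its RNA was 3.86, 4.53 and 5.28 RPKM with Denr shRNA1 and 3.04, 3.49 and 2.65 RPKM with Denr shRNA2, against 0.875, 1.19 and 1.30 RPKM with scramble shRNA and 1.43 and 1.80 RPKM with Gfp shRNA. Every knockdown lysate exceeded every control, as in 2.63% of all genes, and the knockdown mean was 2.89 times the control mean on the RPKM scale. These levels stood on 79 to 143 RNA reads per knockdown library and 26 to 44 per control.

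The rise of Slc40a1 RNA was 1.46 ± 0.19 (SE) on the log2 scale and had rank 3 of 10516. It was thus not the largest, since Aspn (1.91) and Il33 (1.56) rose more, and Zdhhc12 (1.33) came next.

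CDS footprints of Slc40a1 were 0.756, 0.341 and 0.532 RPKM with shRNA1 and 0.761, 0.573 and 0.660 RPKM with shRNA2, against 0.311, 0.305 and 0.173 RPKM with scramble and 0.276 and 0.229 RPKM with Gfp shRNA. All knockdown lysates lay above the controls here too, as in 2.48% of all genes, although on 8 to 18 against 5 to 9 reads a library. The log2 difference was 0.95 ± 0.21 (SE). TE was -2.47 ± 0.64 (SD, n = 6) after knockdown and -1.97 ± 0.52 (n = 5) in controls, with overlapping groups.

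Slc40a1 RNA also separated the shRNAs within each condition, which its selection did not use. Ncoa4 RNA did so as well, lower with shRNA2 than shRNA1 (as in 11.3% of all genes) and lower with Gfp than scramble shRNA (11.1%). Every lysate of shRNA2, the shRNA that left less Denr RNA, had less Slc40a1 RNA than every lysate of shRNA1, as in 11.3% of all genes. The difference of -0.56 ± 0.19 (log2, SE, 95% interval -0.97 to -0.15) did not pass the test (adjusted p = 0.216, limma with Benjamini-Hochberg adjustment). Gfp exceeded scramble shRNA by 0.49 ± 0.21 (log2) without overlap, as in 16.8% of all genes, and without passing (adjusted p = 0.467, limma). Its CDS footprints differed between shRNA2 and shRNA1 by 0.29 ± 0.29 (adjusted p = 0.638) and between Gfp and scramble shRNA by -0.02 ± 0.32 (adjusted p = 0.979). Its TE was higher with shRNA2 by 0.85 ± 0.35 (log2, adjusted p = 0.972, limma).

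By the root mean square difference of gene-centred log2 RNA over the 11 lysates, 5 of 10344 genes with a mean of at least 1 RPKM were most like Slc40a1. They were Mgp (0.35), Olfm1 (0.37), Gadd45a (0.40), Hcfc1r1 (0.42) and Pdk4 (0.43). Mgp encodes an inhibitor of matrix calcification, Gadd45a a growth arrest and DNA damage protein, and Pdk4 a kinase that inhibits pyruvate dehydrogenase. Their mean RNA after knockdown and in controls was 32.0 and 13.4 RPKM for Mgp, 6.22 and 2.71 RPKM for Olfm1 and 56.6 and 31.5 RPKM for Gadd45a. For Hcfc1r1 it was 12.96 and 7.31 RPKM, and for Pdk4 8.55 and 5.31 RPKM. The likeness is taken over the same knockdown and control lysates that brought Slc40a1 here and is a description.

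Tfrc, the receptor for iron uptake, moved the other way. Its RNA was 21.3, 28.4 and 28.4 RPKM with Denr shRNA1 and 25.05, 22.1 and 22.3 RPKM with shRNA2, against 33.7, 33.2 and 40.0 RPKM with scramble and 29.3 and 31.9 RPKM with Gfp shRNA. All 6 knockdown lysates lay below all 5 controls, as in 1.04% of all genes. On the log2 scale Tfrc RNA fell by 0.45 ± 0.10 (SE, adjusted p = 0.0416, limma), the RPKM mean being 26.8% lower.

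Tfrc was the only 1 of the 8 members tested to pass in RNA (FDR 0.1), where 0.865% of all genes passed as lower and 2.68% as higher. With shRNA1 alone against the controls its RNA difference was -0.37 (adjusted p = 0.265), and without scramble shRNA replicate 1 or replicate 2 it was -0.45 in each case (adjusted p = 0.109 and 0.112). Without both lysates that stood apart, Denr shRNA1 replicate 1 and scramble shRNA replicate 3, Tfrc passed in RNA and in CDS footprints.

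CDS footprints of Tfrc were 36.3, 33.8 and 36.2 RPKM with shRNA1 and 34.1, 29.997 and 34.1 RPKM with shRNA2. In controls they were 44.1, 43.8 and 61.9 RPKM with scramble and 43.9 and 37.8 RPKM with Gfp shRNA, the third scramble lysate standing far above the rest. The groups did not overlap, as in 1.97% of all genes, and footprints fell by 0.42 ± 0.10 (log2, SE, adjusted p = 0.0326, limma). Of the 8 members tested Tfrc alone passed in CDS footprints, where 4.55% of all genes passed as lower and 5.47% as higher. An unadjusted p below 0.05 (limma) was found for 4 of the 8, Tfrc, Ncoa4, Aco1 and Slc11a2, each lower. That count has no share over all genes beside it. With shRNA1 alone the CDS footprint difference of Tfrc was -0.37 (adjusted p = 0.154).

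RNA and footprints of Tfrc fell to a like degree, and its TE differed by 0.03 ± 0.10 (log2, SE, 95% interval -0.19 to 0.25, adjusted p = 0.999, limma). Between the Denr shRNAs the RNA of Tfrc differed by -0.16 ± 0.13 (shRNA2 minus shRNA1, adjusted p = 0.632) and between Gfp and scramble shRNA, without overlap as in 11.1% of all genes, by -0.22 ± 0.14 (adjusted p = 0.638). In bulk lysates, fewer cells with a transcript and less transcript per cell cannot be told apart.

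**Figure D3:**
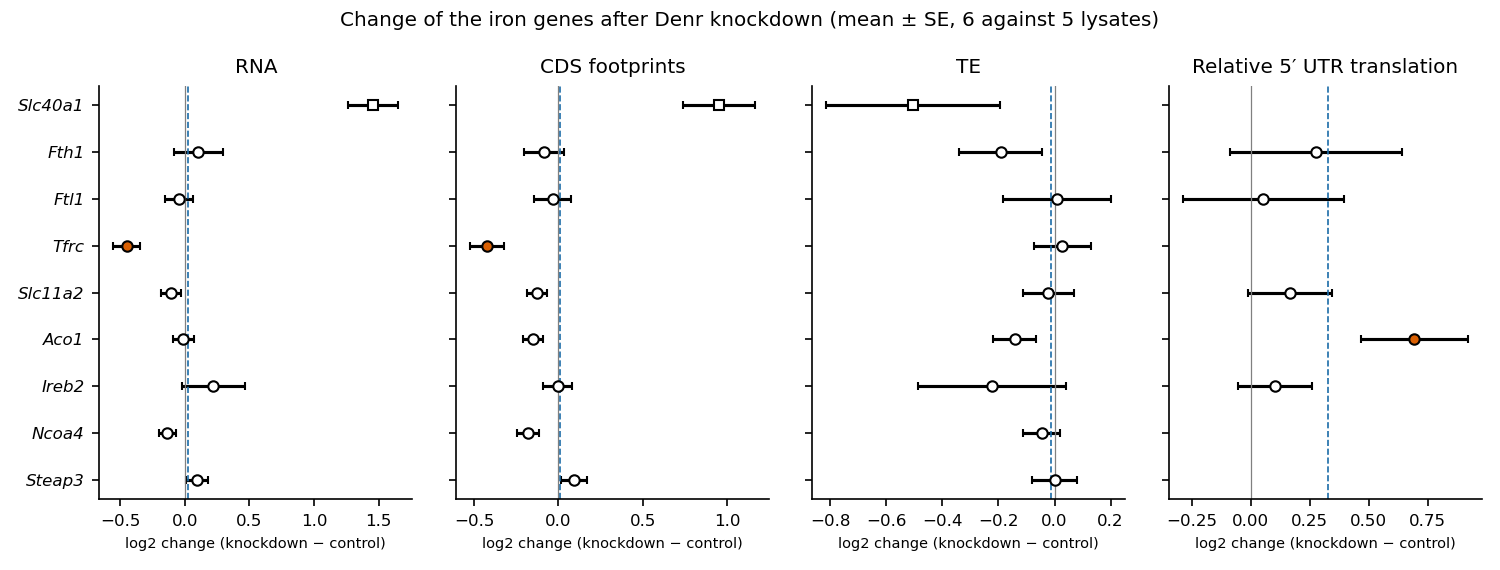
Log2 change (knockdown minus control, mean ± SE) of the 9 iron genes in RNA, CDS footprints, TE and relative 5′ UTR translation, with filled points for an adjusted p below 0.1, the square for Slc40a1, which was not tested, and the dashed line for the median of all genes tested. Tfrc passed in RNA and CDS footprints and Aco1 in relative 5′ UTR translation, whose median over all genes was 0.33.

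The ferritins showed no difference from control that passed the test in any of the 5 measures. Fth1 RNA was 3771, 3518 and 2409 RPKM with shRNA1 and 2804, 3423 and 3197 RPKM with shRNA2. In controls it was 3084, 2749 and 1744 RPKM with scramble and 4027 and 3639 RPKM with Gfp shRNA, so that the controls alone covered the range of the knockdown lysates. The log2 difference was 0.10 ± 0.19 (SE, 95% interval -0.30 to 0.51, adjusted p = 0.833, limma).

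CDS footprints of Fth1 were 562, 495 and 454 RPKM with shRNA1 and 568, 503 and 459.5 RPKM with shRNA2, against 664, 562 and 376 RPKM with scramble and 591 and 538 RPKM with Gfp shRNA. They differed by -0.09 ± 0.12 (log2, adjusted p = 0.690) and TE by -0.19 ± 0.15 (adjusted p = 0.955, limma). The scramble lysates had the highest TE of Fth1, at -2.21, -2.29 and -2.21, and the Gfp lysates stood at -2.77 and -2.76, within the knockdown range of -2.83 to -2.30. Gfp minus scramble shRNA was -0.52 ± 0.18 (log2, adjusted p = 0.9998, limma), without overlap as in 6.51% of all genes. Without scramble shRNA replicate 3 and Denr shRNA1 replicate 1 the RNA difference of Fth1 was -0.13 (adjusted p = 0.602).

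Ftl1 RNA ranged from 1224 to 1833 RPKM after knockdown (median 1414) and from 1225 to 1721 RPKM in controls (median 1522). Its CDS footprints ranged from 67.2 to 100.4 RPKM (median 88.4) and from 67.0 to 101 RPKM (median 87.8). The differences were -0.04 ± 0.11 in RNA (log2, adjusted p = 0.890), -0.03 ± 0.11 in CDS footprints (adjusted p = 0.881) and 0.01 ± 0.19 in TE (95% interval -0.41 to 0.43, adjusted p = 0.999, limma). The lowest TE values were those of Denr shRNA1 replicate 1 (-4.77) and Gfp shRNA replicate 1 (-4.68), 1 of each condition.

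5′ UTR footprints of the ferritins were spread widely among the scramble lysates. In scramble lysates Fth1 had 1614, 3106 and 6749 RPKM and Ftl1 734, 2516 and 4482 RPKM. The knockdown lysates ranged from 2892 to 5476 RPKM for Fth1 and from 1469 to 2678 RPKM for Ftl1, and the Gfp lysates from 2582 to 2959 and from 1581 to 1946 RPKM. The log2 differences from control were 0.19 ± 0.29 for Fth1 and 0.02 ± 0.33 for Ftl1 (adjusted p = 0.634 and 0.967, limma). Single scramble lysates set the direction for Ftl1, which differed by -0.33 without replicate 1 (adjusted p = 0.390) and by 0.33 without replicate 3 (adjusted p = 0.426, limma). For Fth1 these values were -0.04 (adjusted p = 0.921) and 0.48 (adjusted p = 0.178, limma).

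**Figure D4:**
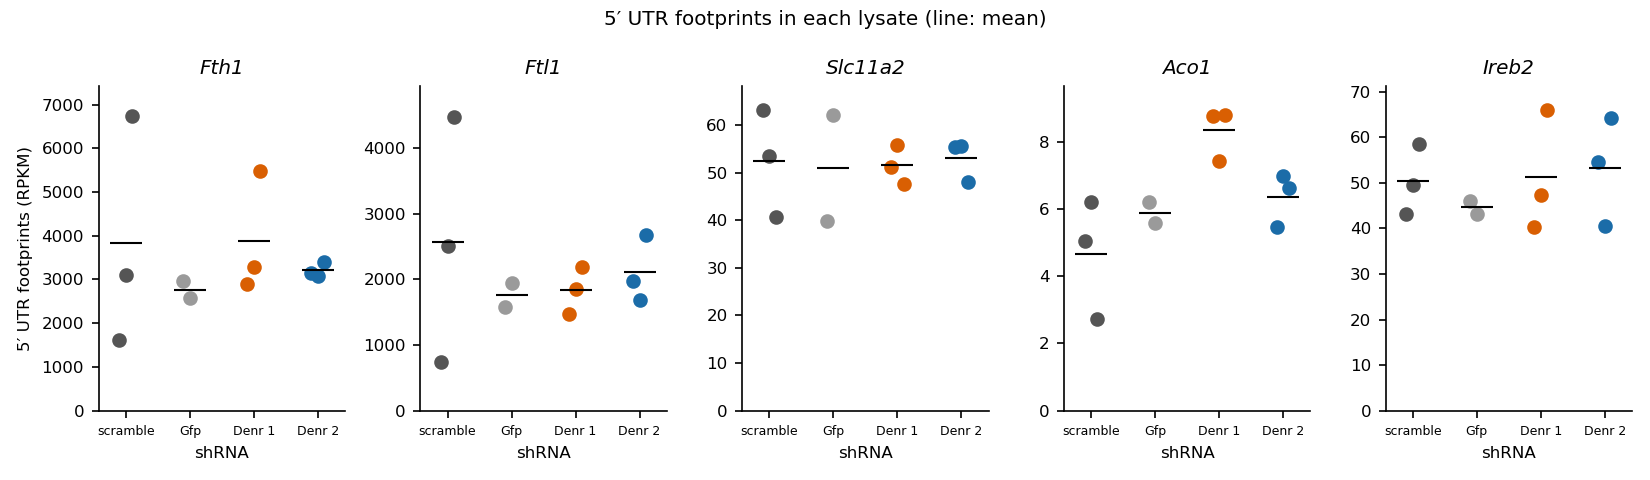
5′ UTR footprints in RPKM for each lysate under the 4 shRNAs, for the 5 iron genes with a covered 5′ UTR, with lines at the means. The scramble lysates of Fth1 spread from 1614 to 6749 RPKM, wider than those of the other 3 shRNAs, and Aco1 was highest with Denr shRNA1, at 7.42 to 8.80 RPKM.

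Aco1 was the single member whose 5′ UTR measures passed. Its 5′ UTR footprints were 8.77, 7.42 and 8.80 RPKM with shRNA1 and 5.45, 6.98 and 6.61 RPKM with shRNA2, against 5.06, 6.21 and 2.71 RPKM with scramble and 6.20 and 5.57 RPKM with Gfp shRNA. The groups overlapped through the first shRNA2 lysate, and the third scramble lysate was far below the rest. They rose by 0.54 ± 0.22 (log2, SE, adjusted p = 0.0975, limma), on 27 to 60 reads a library.

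Relative 5′ UTR translation of Aco1 rose by 0.69 ± 0.23 (log2, SE, adjusted p = 0.0776, limma), 1 of 5 members tested, where 18.1% of the 5175 genes passed as higher. In 5′ UTR footprints, too, Aco1 was the only 1 of 5, and 23% of genes passed as higher. The median gene rose by 0.33 in relative 5′ UTR translation and by 0.30 in 5′ UTR footprints. Relative to such a shift, with each library centred on its median, Aco1 was 0.38 higher (adjusted p = 0.579) and 0.23 higher (adjusted p = 0.645) and no longer passed.

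The Aco1 calls also rested on single lysates, and passed under 10 of 22 alternative settings in relative 5′ UTR translation and under 9 of 22 in 5′ UTR footprints. Without scramble shRNA replicate 1 the adjusted p was 0.105 in relative 5′ UTR translation and 0.140 in 5′ UTR footprints. Without scramble shRNA replicate 3 the differences were 0.47 (adjusted p = 0.126) in relative 5′ UTR translation and 0.33 (adjusted p = 0.213) in 5′ UTR footprints, and without it and Denr shRNA1 replicate 1 they were 0.41 (adjusted p = 0.179) and 0.28 (adjusted p = 0.313). Reads of RNA on the Aco1 5′ UTR were higher as well, at 8.29 to 10.4 RPKM after knockdown and 4.28 to 8.32 RPKM in controls. Set over that RNA, its 5′ UTR footprints differed by 0.07 (adjusted p = 0.852).

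On its CDS, Aco1 footprints ranged from 23.6 to 26.4 RPKM after knockdown (median 24.9) and from 25.9 to 30.2 RPKM in controls (median 28.5), a log2 difference of -0.15 ± 0.06 (adjusted p = 0.141, limma). Its TE was -0.11, 0.21 and 0.20 with shRNA1 and 0.28, 0.21 and 0.26 with shRNA2, against 0.37, 0.32 and 0.29 with scramble and 0.33 and 0.29 with Gfp shRNA. Every knockdown value lay below every control, in Aco1 alone of the 8 members tested, as in 1.32% of all genes. The difference of -0.14 ± 0.08 did not pass (adjusted p = 0.836).

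No member passed in TE, 0 of 8 by limma on TE and 0 of 8 with an interaction term over the 22 libraries, and 0 of 8 had an unadjusted p below 0.05, as 6.66% of all genes did. Over all genes 0.475% passed, all lower. The median TE change of the 8 was -0.03, beside -0.01 over all genes. In RNA the median of the 8 was -0.03, against 0.03 over all genes, and in CDS footprints -0.11 against 0.01.

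Ireb2, the partner of Aco1 in sensing, had RNA that varied widely within each shRNA. It was 8.47, 17.8 and 18.2 RPKM with shRNA1 and 15.05, 24.0 and 24.1 RPKM with shRNA2, against 13.01, 15.1 and 18.8 RPKM with scramble and 9.88 and 18.004 RPKM with Gfp shRNA. The lowest value under each shRNA was that of the lysate numbered 1. The difference was 0.22 ± 0.24 (log2, adjusted p = 0.703, limma), while CDS footprints, at 28.3 to 36.6 RPKM after knockdown and 28.1 to 35.6 RPKM in controls, differed by -0.0044 ± 0.09 (adjusted p = 0.982). Against all controls, Ireb2 RNA differed by -0.06 with shRNA1 alone (adjusted p = 0.945) and by 0.49 with shRNA2 alone (adjusted p = 0.260, limma). shRNA2 exceeded shRNA1 by 0.55 ± 0.31 (adjusted p = 0.486, limma), with overlapping lysates, and a fit blocked on replicate number gave adjusted p = 0.0517.

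Relative 5′ UTR translation differed by 0.10 ± 0.16 for Ireb2 (adjusted p = 0.627), 0.17 ± 0.18 for Slc11a2 (adjusted p = 0.475), 0.28 ± 0.36 for Fth1 (adjusted p = 0.567) and 0.05 ± 0.34 for Ftl1 (adjusted p = 0.908, limma). In the main fit all 4 lay below the median gene's rise of 0.33, and a comparison of these genes with that median was not tested. Without scramble shRNA replicate 1 the difference was -0.33 for Ftl1 and -0.03 for Fth1 (adjusted p = 0.359 and 0.951, limma). Without scramble shRNA replicate 3 it was 0.36 for Ftl1 and 0.69 for Fth1 (adjusted p = 0.376 and 0.107, limma). Slc40a1, Tfrc, Ncoa4 and Steap3 had too few 5′ UTR footprints to be tested.

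Slc11a2 and Ncoa4 had slightly lower CDS footprints, which did not pass in the main fit. They passed under 1 of 22 alternative settings for Slc11a2 and under 3 of 22 for Ncoa4. For Ncoa4 they were 44.8, 43.4 and 45.5 RPKM with shRNA1 and 41.1, 40.0 and 43.9 RPKM with shRNA2, against 46.1, 48.9 and 54.3 RPKM with scramble and 52.1 and 43.7 RPKM with Gfp shRNA. The second Gfp lysate alone reached into the knockdown range. The difference was -0.18 ± 0.06 (log2, adjusted p = 0.116, limma), and it was -0.22 without that lysate (adjusted p = 0.0444). A fit blocked on replicate number gave -0.20 (adjusted p = 0.0531, limma).

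For Slc11a2, CDS footprints ranged from 31.9 to 36.9 RPKM after knockdown (median 33.5) and from 34.6 to 41.2 RPKM in controls (median 36.5), a difference of -0.13 ± 0.06 (adjusted p = 0.208, limma), or -0.14 with the block (adjusted p = 0.0971). RNA differed by -0.11 ± 0.07 for Slc11a2 (adjusted p = 0.513) and by -0.14 ± 0.07 for Ncoa4 (adjusted p = 0.327). TE differed by -0.02 ± 0.09 and -0.05 ± 0.07, with adjusted p = 0.999 by limma for both.

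Steap3 passed in CDS footprints between the Denr shRNAs. Its CDS footprints were 395, 422 and 421 RPKM with shRNA1 and 498, 479 and 491 RPKM with shRNA2. The controls stood at 382, 383 and 433 RPKM with scramble and 453 and 460.4 RPKM with Gfp shRNA. shRNA2 exceeded shRNA1 by 0.25 ± 0.07 (log2, SE, adjusted p = 0.0448, limma), the 1 call among 9 members, where 5.68% of all genes passed as higher and 4.01% as lower. In a fit blocked on replicate number its adjusted p was 0.0155, and 1812 genes passed in place of 1019. The lysates of the Denr shRNAs did not overlap in CDS footprints of Steap3, Ftl1, Slc11a2 and Aco1, each higher with shRNA2, as were 13.7% of all genes.

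That Steap3 difference did not pass without any 1 of the 3 shRNA2 lysates or without Denr shRNA1 replicate 1 (0.22 to 0.26, adjusted p = 0.108 to 0.155). The knockdown as a whole differed from control by 0.09 ± 0.08 both in CDS footprints (adjusted p = 0.495) and in RNA (adjusted p = 0.626, limma). Against all controls, its CDS footprints differed by -0.03 with shRNA1 alone (adjusted p = 0.878) and by 0.22 with shRNA2 alone (adjusted p = 0.160, limma). Between Gfp and scramble shRNA, Steap3 footprints differed by 0.20 ± 0.07 (adjusted p = 0.143, limma), without overlap as in 20.9% of all genes. Without scramble shRNA replicate 3 that difference was 0.26 (adjusted p = 0.0698).

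In RNA, no member passed between the Denr shRNAs (0 of 9 by limma, while 2.06% of all genes passed), and 1 had an unadjusted p below 0.05, as 13.6% of all genes did. Between Gfp and scramble shRNA no member passed in RNA (0 of 9 by limma, 0.704% of all genes) or in CDS footprints (0 of 9, 8.48% of all genes). An unadjusted p below 0.05 was found for 2 members in each, as for 9.69% and 22.5% of all genes. In TE neither comparison held a call among the 9 members, or among all genes (0% by limma), and an unadjusted p below 0.05 was found for 1 member in each, as for 3.73% of all genes between the Denr shRNAs and 2.22% between the control shRNAs.

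Around the 9 members, 98 other measured genes of iron biology in 7 lists gave 2 calls in RNA, 10 in CDS footprints and 1 in TE, over 10 genes. These are 2.04%, 10.2% and 1.02% of the 98, while 3.55%, 10% and 0.475% of all genes passed. By direction, 2.68% of all genes passed as higher and 0.865% as lower in RNA, and 5.47% and 4.55% in CDS footprints. No list was tested against these shares. In RNA and CDS footprints, counts with an unadjusted p below 0.05 have no share over all genes beside them. They cannot be read as many or few. In TE that share was 6.66%. Among 7 measured genes of iron uptake and reduction, 0 passed in RNA (3 with an unadjusted p below 0.05) and 2 passed as higher in CDS footprints. Footprints of Slc46a1, a haem and folate transporter, rose by 0.45 ± 0.10 (log2, adjusted p = 0.0258, 5.65 against 4.10 RPKM), and those of Mcoln1, a lysosomal cation channel, by 0.35 ± 0.10 (adjusted p = 0.0586, limma). The median of the list in CDS footprints was -0.11, against 0.01 over all genes.

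Of 20 genes of mitochondrial iron import and iron-sulfur cluster assembly, 2 passed as higher in CDS footprints and 0 in RNA (3 unadjusted). They were Fdx1l, a mitochondrial ferredoxin (0.51 ± 0.10, adjusted p = 0.0156, 38.4 against 27.1 RPKM), and Iscu, the scaffold on which clusters are built (0.24 ± 0.07, adjusted p = 0.0505, limma). The list's median was 0.07 in CDS footprints, against 0.01 over all genes, of which 5.47% passed as higher. In 9 iron chaperones, sensors and export partners, 17 genes of haem synthesis, breakdown and transport and 11 of cytosolic iron-sulfur assembly, 0 genes passed in RNA, CDS footprints or TE (limma), with medians of 0.03, 0.04 and 0.04 in CDS footprints. With an unadjusted p below 0.05 they held 0, 2 and 0 in RNA, 1, 3 and 1 in CDS footprints and 1, 0 and 0 in TE.

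A list of 18 genes held antioxidant genes under NRF2 and BACH1 and the regulators Nfe2l2, Keap1, Bach1 and Mafg. Of these, 2 passed in RNA and 4 in CDS footprints, all lower. The subunits of glutamate-cysteine ligase, which makes the precursor of glutathione, fell in RNA by 0.32 ± 0.09 (Gclm, adjusted p = 0.0859) and 0.29 ± 0.06 (Gclc, adjusted p = 0.0205) on the log2 scale. CDS footprints of Gclm fell by 0.25 ± 0.05 (adjusted p = 0.0156) and those of Gclc by 0.29 ± 0.06 (adjusted p = 0.0193). CDS footprints of G6pdx and Pgd, enzymes of the pentose phosphate pathway, fell by 0.24 ± 0.06 (adjusted p = 0.0386) and 0.23 ± 0.07 (adjusted p = 0.0591, limma). Over all genes, 0.865% passed as lower in RNA and 4.55% in CDS footprints. The medians over the list were -0.10 in RNA and -0.12 in CDS footprints, against 0.03 and 0.01 over all genes.

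Of 16 iron-dependent oxygenases and reductases, 2 passed in CDS footprints and 1 in TE, all lower. Tet3, which oxidises 5-methylcytosine, fell in TE by 0.40 ± 0.08 (log2, adjusted p = 0.0629) and in CDS footprints by 0.42 ± 0.13 (adjusted p = 0.0824). CDS footprints of Rrm2, the iron-carrying subunit of ribonucleotide reductase, fell by 0.32 ± 0.07 (adjusted p = 0.0260, limma). Over all genes, 4.55% passed as lower in CDS footprints and 0.475% passed in either direction in TE. The list's median was -0.02 in CDS footprints, against 0.01 over all genes.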

How the data were processed

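The authors trimmed reads with cutadapt, aligned them to rRNA, tRNA and Ensembl release 84 cDNA with Bowtie2 and to the genome (GRCm38) with TopHat2, and counted footprints by A-site and RNA reads by 5′ end. Reads with no single feature went to the CDS first. The deposited RPKM values were scaled by the upper quartile, separately for RPF-seq and RNA-seq, and genes with few reads were removed upstream. Here log2(RPKM + 0.1) was tested with limma 3.58.1 (moderated, trended variance, R 4.3.3) over all 10516 genes, Benjamini-Hochberg adjusted, at an FDR of 0.1. Fold changes on this scale are understated for low genes. Knockdown was fitted as 6 against 5 lysates, and the shRNA contrasts in a fit of all 4 shRNAs. Whole reads were recovered from the RPKM steps for 231352 of 231352 CDS values and 96.1% of 5′ UTR values, and used for the 5′ UTR filter and a voom alternative. The members, pathway and marker lists and tests were chosen with earlier results of these data known. Named genes were the members, Denr, up to 4 called genes a list with the largest change, the 5 genes most like Slc40a1 and, chosen after their values were seen, the neighbours of its rank. Alternatives varied the pseudocount, filter, centring, variance model, controls and lysates. 1 further pathway list is not reported here. Fits were tested on simulated data with independent noise in each lysate, which leaves out any likeness of same-numbered lysates.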

Additional observations from a re-analysis of the deposited data

Results flagged for a closer look

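Among 74 groups of the members' values on the log2 scale, 8 held a lysate far from the others of its condition, where chance gives about 1 in 20. Denr shRNA1 replicate 1 was that lysate 4 times, with TE of -4.77 for Ftl1 (others -4.07 to -3.81), -0.91 for Slc11a2 (others -0.64 to -0.53) and -0.11 for Aco1 (others 0.20 to 0.28), and log2 RNA of 4.73 for Aco1 (others 4.37 to 4.46). Its RNA-seq library was the one farthest from the gene medians. Denr shRNA1 replicate 3 had log2 5′ UTR footprints of 12.42 for Fth1 (others 11.50 to 11.73). Scramble shRNA replicate 3 had relative 5′ UTR translation of -3.35 for Aco1 (others -2.33 to -2.05) and log2 5′ UTR footprints of 1.49 (others 2.37 to 2.66). Denr shRNA2 replicate 3 had TE of 0.59 for Ncoa4 (others 0.45 to 0.49). The CDS footprints of Steap3 differed between the Denr shRNAs by 0.25 (log2, shRNA2 minus shRNA1, adjusted p = 0.0448, limma). What set these lysates apart was not tested.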

How the results depend on the processing

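Numbers below count genes with an adjusted p below 0.1 by limma, and no member reversed a call. In place of 373 genes, RNA gave 159 with shRNA1 alone (0 members in place of 1), 940 with scramble alone as control and 1003 with the replicate block. CDS footprints, with 1053, gave 2651 with scramble alone (2 members), 1940 with the block (3 members), 531 without the lysates of Denr shRNA1 replicate 1 and scramble replicate 3, a setting chosen after seeing the data, and 0 members with shRNA1 alone. TE, with 50, gave 1 with shRNA1 alone and 10 with scramble alone. Relative 5′ UTR translation, with 939, gave 6 after centring, 5 and 9 with shRNA1 or shRNA2 alone, 131 with a 5′ UTR RPKM of at least 1, 427 without both lysates (0 members in each), 514 with scramble alone and 2418 with the block. 5′ UTR footprints, with 1198, gave 29 after centring, 411 and 1 with either shRNA alone, 4 over 5′ UTR RNA, 691 without both lysates (0 members in each) and 2289 with the block. Why these counts moved was not tested.

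Between the Denr shRNAs, RNA with 217 gave 965 with the block (2 members, Slc40a1 at adjusted p = 0.0833 and Ireb2 at 0.0517) and 442 without both lysates, and CDS footprints with 1019 gave 1812 with the block. Between Gfp and scramble, RNA with 74 gave 157 with the block and 221 without both lysates, and CDS footprints with 892 gave 1437 and 507 (Steap3 passing in both, 1 member in place of 0). Under the block Ncoa4 (-0.20, adjusted p = 0.0531) and Slc11a2 (-0.14, adjusted p = 0.0971) also passed in CDS footprints after knockdown.

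The labels do not say what a shared replicate number means. Deviations of same-numbered lysates correlated above 0.1 in 10 of 15 pairs in RNA, 13 in CDS footprints and 10 in TE. Among 30 pairs with unlike numbers, 5, 4 and 4 did so. Of 11 lysates, 7, 9 and 9 correlated best with their own number. The pairs are not independent, since deviations from a shared shRNA mean are tied to each other. In CDS footprints the 2 same-numbered pairs below 0.1 both held a Gfp lysate. The 9 same-numbered pairs without Gfp (0.115 to 0.323), among them the 3 between the Denr shRNAs, all exceeded 0.1. The reported fits have no block.

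Leaving out 1 lysate at a time gave 139 to 734 genes in RNA (0 to 1 members), 484 to 1946 in CDS footprints (1 to 2), 14 to 72 in TE (0), 38 to 1773 in relative 5′ UTR translation (0 to 1) and 383 to 1745 in 5′ UTR footprints (0 to 1). It gave 61 to 267 and 560 to 1236 between the Denr shRNAs in RNA (0) and CDS footprints (0 to 1), with 0 to 1 in TE, and 1 to 212 and 154 to 1300 between Gfp and scramble (0, and 0 to 1). The rise of Slc40a1 RNA ranged from 1.04 with a pseudocount of 1 RPKM to 1.74, and that of its CDS footprints from 0.34 to 1.19. Its footprints, on 5 to 18 reads, limit every statement on its TE.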
